A study of Mus musculus with 15 samples.

Results

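The citric acid cycle oxidizes acetyl groups in the mitochondrial matrix and hands their electrons to the respiratory chain. In liver it also supplies citrate for fat synthesis and oxaloacetate for glucose production. Carbon of valine, and part of the carbon of isoleucine, enters it as succinyl-CoA. Described here are 9 genes that encode enzymes of the cycle, Cs, Idh3a, Idh3b, Idh3g, Ogdh, Sucla2, Suclg1, Fh1 and Mdh2. They were chosen by symbol in the annotation of the array, with earlier results of these data known. All 9 were measured, each by 1 transcript cluster, among 19938 genes with 1 symbol per cluster. A transcript cluster is the set of probes that the array assigns to 1 gene.

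The livers came from male mice of the inbred strain C57BL/6J, whose diets began after weaning at 8 weeks of age. The 5 groups were Ath+HF+BCAA 68w, Ath+HF 68w, Ath+HF+BCAA 38w, Ath+HF 38w and basal 38w, with 3 arrays each and 15 in all. Ath+HF is an atherogenic and high-fat diet used as a model of steatohepatitis, BCAA are the branched-chain amino acids leucine, isoleucine and valine, given as 3% of that diet, and the basal diet is the control. Age in weeks follows the diet, and mice killed at 38w had been on their diet for 30 weeks and those killed at 68w for 60 weeks. No source used here says that each array holds RNA of a separate mouse, so p-values measure no more than how these arrays vary, and that variation may be technical. The mice of 68w were kept for the study of liver tumors, and no source used here says whether the tissue on their arrays was tumor or background liver. All basal arrays used here are of 38w. Wherever 68w is set against 38w, the effects of age, of feeding time and of a possible batch cannot be told apart.

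Values are log2 signals, so that 1 unit is a 2-fold difference. Group comparisons came from 1 limma fit of all arrays, with p-values adjusted by the Benjamini-Hochberg method over all 19938 genes, and a gene was called higher or lower at an adjusted p under 0.05. The median of an array over all transcript clusters lay between 6.91 and 7.16. It was 6.91 to 7.04 in the arrays of 38w and 7.10 to 7.16 in those of 68w, without overlap. Hepatocyte markers (Alb, Ttr, Apob and 6 others) had a mean between 13.10 and 13.33 on every array. The summed linear signal of 15 macrophage markers was 30350 to 37738 in arrays labelled Ath+HF+BCAA 68w and 6870 to 7457 in arrays labelled Ath+HF 68w. It was 17843 to 24789 in Ath+HF+BCAA 38w, 20538 to 25696 in Ath+HF 38w and 10600 to 11133 in basal 38w. These sums were thus highest in one 68w group and lowest in the other. Every direction between the 68w groups rests on the labels of these 6 arrays, and the groups are called by those labels throughout. Whether these labels were exchanged could not be settled from the files used here. An exchange would turn every direction between the 68w groups and swap their values against basal 38w. It would also change the comparisons of 68w with 38w within a diet and the difference of the BCAA effects between the ages.

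At 68w the 9 genes did not move as 1 block. In the Ath+HF 68w arrays, Idh3a fell to 0.473 and Sucla2 to 0.490 of the basal 38w level, Cs fell slightly, and Mdh2 was 1.64-fold higher. In the Ath+HF+BCAA 68w arrays Sucla2, Suclg1, Fh1, Idh3a, Idh3b and Cs fell, to between 0.342 and 0.815 of the basal level, and Mdh2 was again higher, at 1.34-fold. Idh3g and Ogdh passed the test in no comparison in the fit of all arrays. At 38w no member passed the test on either diet. In whole liver, fewer cells of a type and less RNA per cell cannot be told apart. The arrays of all members are drawn in the plot of log2 signals by array.

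**Figure D1:**
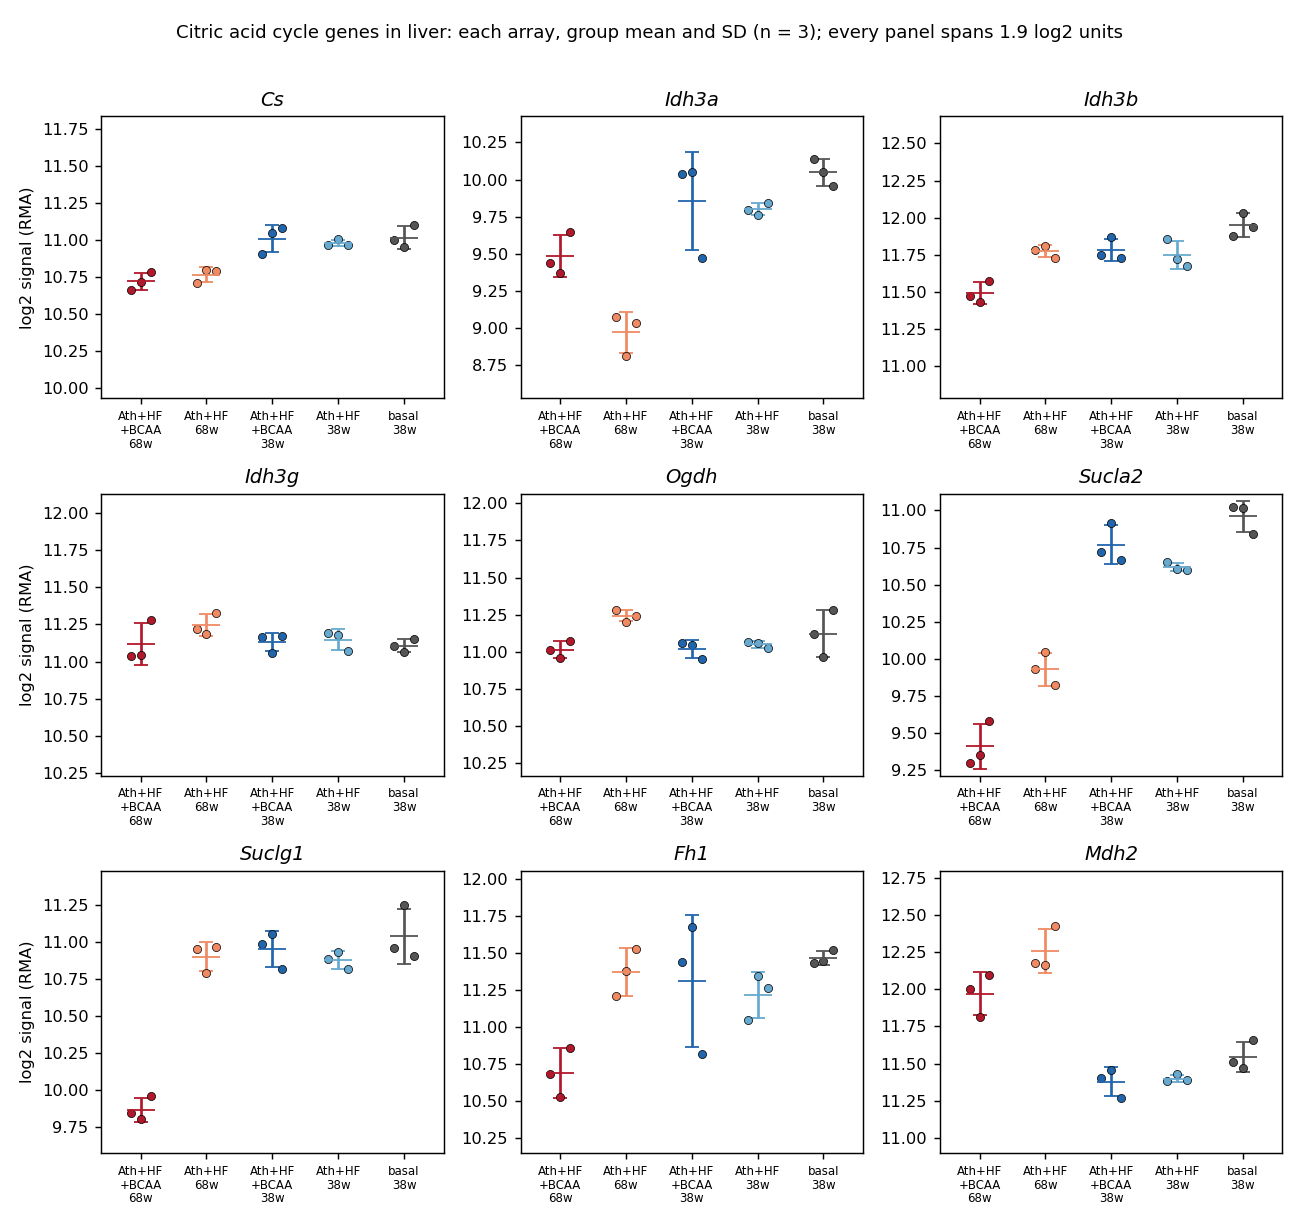
Log2 signal of the 9 citric acid cycle genes (y axis, each panel spanning the same 1.9 units) in the 5 groups (x axis), with 1 point per array and a bar at the mean with its SD (n = 3). Suclg1 lies lowest in the 3 Ath+HF+BCAA 68w arrays, Fh1 has its lowest mean there with 1 Ath+HF+BCAA 38w array inside their range, Idh3a lies lowest in the 3 Ath+HF 68w arrays, and Mdh2 lies highest in the 6 arrays of 68w.

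Cs, citrate synthase, joins acetyl-CoA and oxaloacetate at the entry of the cycle. Its log2 signal was 10.67 to 10.78 in Ath+HF+BCAA 68w and 10.71 to 10.80 in Ath+HF 68w, against 10.95 to 11.10 in basal 38w. Both 68w groups lay below all basal arrays. Relative to basal, Cs changed by -0.29 log2 units (adjusted p = 0.00951, limma, standard error 0.08) in Ath+HF+BCAA 68w and by -0.25 (adjusted p = 0.0282, standard error 0.08) in Ath+HF 68w. The call for Ath+HF 68w was lost with quantile normalization (adjusted p = 0.0811), in a fit of both groups alone (0.0795), and on leaving out replicate 1 or 3 of basal 38w or any replicate of Ath+HF 68w (0.0516 to 0.0971). The call for Ath+HF+BCAA 68w was lost with quantile normalization (adjusted p = 0.0616).

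Idh3a, Idh3b and Idh3g encode the alpha, beta and gamma subunits of the NAD-dependent isocitrate dehydrogenase, in which the alpha subunit is catalytic. Idh3a was at 9.44, 9.37 and 9.64 in the Ath+HF+BCAA 68w arrays and at 9.07, 8.81 and 9.03 in the Ath+HF 68w arrays. It was at 10.04, 10.05 and 9.47 in Ath+HF+BCAA 38w, at 9.79, 9.76 and 9.84 in Ath+HF 38w, and at 10.14, 10.05 and 9.96 in basal 38w. The Ath+HF 68w arrays were lowest, the Ath+HF+BCAA 68w arrays lay between them and basal, and replicate 3 of Ath+HF+BCAA 38w overlapped the Ath+HF+BCAA 68w range. Against basal 38w the log2 fold change was -0.57 (standard error 0.14, adjusted p = 0.00346, limma) in Ath+HF+BCAA 68w and -1.08 (standard error 0.14, adjusted p = 6.21e-05, limma) in Ath+HF 68w. Both calls held without each array in turn.

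Idh3b was at 11.47, 11.43 and 11.58 in Ath+HF+BCAA 68w and at 11.78, 11.81 and 11.73 in Ath+HF 68w, against 11.88, 12.03 and 11.94 in basal 38w. All 68w arrays were below basal, those with BCAA the most. The arrays of Ath+HF+BCAA 38w (11.73 to 11.87) and Ath+HF 38w (11.67 to 11.85) also lay below all basal arrays. Neither change passed the test (adjusted p = 0.313 and 0.247, limma). In these comparisons with the same basal arrays, 20.9% and 21.0% of all genes lacked overlap, as did 2 and 5 of 9 members. The log2 fold change was -0.46 (standard error 0.09, adjusted p = 0.000525, limma) in Ath+HF+BCAA 68w, and in Ath+HF 68w it was -0.18 with a 95% interval of -0.36 to 0.01, which did not pass the test (adjusted p = 0.120, limma). That value passed when the medians of the arrays were set equal (-0.36, adjusted p = 0.00588) or the medians over the genes were (-0.24, adjusted p = 0.0420). Idh3g averaged 11.12 ± 0.14 in Ath+HF+BCAA 68w and 11.24 ± 0.07 in Ath+HF 68w, against 11.11 ± 0.04 in basal 38w (SD, n = 3 each). Its 95% interval against basal 38w was -0.18 to 0.21 in Ath+HF+BCAA 68w and -0.06 to 0.33 in Ath+HF 68w, on the log2 scale. In Ath+HF 68w the catalytic subunit was thus the only one of the 3 called against basal, and in Ath+HF+BCAA 68w it was called together with Idh3b.

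Ogdh, the first component of the 2-oxoglutarate dehydrogenase complex, averaged 11.01 ± 0.06 in Ath+HF+BCAA 68w and 11.24 ± 0.04 in Ath+HF 68w, against 11.12 ± 0.16 in basal 38w (SD, n = 3 each). Against basal 38w its log2 fold change was -0.11 (95% interval -0.30 to 0.09) in Ath+HF+BCAA 68w and 0.12 (95% interval -0.07 to 0.31) in Ath+HF 68w. Neither passed the test. The value in Ath+HF+BCAA 68w passed with array medians set equal, at -0.29 (adjusted p = 0.0167), and with medians over the genes set equal, at -0.32 (adjusted p = 0.00957).

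Sucla2 and Suclg1 encode subunits of succinyl-CoA synthetase, the enzyme that forms ATP or GTP directly in the cycle. Suclg1 is the alpha subunit of both forms, and Sucla2 is the beta subunit of the ATP-forming one. Sucla2 was at 9.30, 9.35 and 9.58 in Ath+HF+BCAA 68w and at 9.93, 10.04 and 9.82 in Ath+HF 68w. It was at 10.72, 10.92 and 10.67 in Ath+HF+BCAA 38w, at 10.65, 10.61 and 10.60 in Ath+HF 38w, and at 11.03, 11.01 and 10.84 in basal 38w. No array of either 68w group reached any array of 38w, and the 68w groups did not overlap each other. Of all genes, 52.5% lacked overlap between the ages in Ath+HF+BCAA and 52.1% in Ath+HF. Against basal 38w the log2 fold change was -1.55 (standard error 0.10, adjusted p = 2.65e-08, limma) in Ath+HF+BCAA 68w, the largest among the members, and -1.03 (standard error 0.10, adjusted p = 1.19e-05, limma) in Ath+HF 68w.

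Suclg1 was at 9.85, 9.80 and 9.96 in Ath+HF+BCAA 68w and at 10.95, 10.79 and 10.96 in Ath+HF 68w. It was at 10.98, 11.06 and 10.82 in Ath+HF+BCAA 38w, at 10.89, 10.93 and 10.81 in Ath+HF 38w, and at 10.96, 11.25 and 10.90 in basal 38w. Only the Ath+HF+BCAA 68w arrays stood apart, and the other 4 groups overlapped. Against basal 38w the log2 fold change was -1.17 (standard error 0.11, adjusted p = 4.20e-07, limma) in Ath+HF+BCAA 68w. In Ath+HF 68w it was -0.14 (95% interval -0.36 to 0.09, adjusted p = 0.320, limma), which passed the test only with array medians set equal (-0.32, adjusted p = 0.0334).

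Fh1, fumarase, hydrates fumarate to malate. It was at 10.69, 10.53 and 10.86 in Ath+HF+BCAA 68w and at 11.21, 11.38 and 11.53 in Ath+HF 68w. It was at 11.44, 11.68 and 10.82 in Ath+HF+BCAA 38w, at 11.05, 11.34 and 11.26 in Ath+HF 38w, and at 11.43, 11.44 and 11.52 in basal 38w. Apart from replicate 3 of Ath+HF+BCAA 38w, which lay inside their range, all other arrays were above the Ath+HF+BCAA 68w arrays. Against basal 38w the log2 fold change was -0.77 (standard error 0.17, adjusted p = 0.00163, limma) in Ath+HF+BCAA 68w and -0.09 (95% interval -0.46 to 0.27, adjusted p = 0.689, limma) in Ath+HF 68w.

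Mdh2, the mitochondrial malate dehydrogenase, closes the cycle by regenerating oxaloacetate. It was at 12.00, 11.81 and 12.10 in Ath+HF+BCAA 68w and at 12.17, 12.17 and 12.43 in Ath+HF 68w. It was at 11.40, 11.46 and 11.27 in Ath+HF+BCAA 38w, at 11.38, 11.43 and 11.39 in Ath+HF 38w, and at 11.51, 11.47 and 11.66 in basal 38w. All 6 arrays of 68w were above all 9 arrays of 38w. For 68w against 38w within a diet, 52.5% of all genes lacked overlap in Ath+HF+BCAA and 52.1% in Ath+HF. Against basal 38w Mdh2 was higher by 0.43 log2 units (adjusted p = 0.00337, limma, standard error 0.10) in Ath+HF+BCAA 68w and by 0.71 (standard error 0.10, adjusted p = 0.000149, limma) in Ath+HF 68w. It was the only member called higher in either comparison. The call in Ath+HF+BCAA 68w was lost when array medians were set equal (0.24, adjusted p = 0.0744) or medians over the genes were (0.22, adjusted p = 0.0973).

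Counted together against basal 38w, 1 member was called higher and 6 lower in Ath+HF+BCAA 68w, where 22.9% of all genes were higher and 21.8% lower. The mean level of a member lay above that of 85.8% (Idh3a) to 98.1% (Idh3b) of all genes. Shares called among genes of like level were not computed. In Ath+HF 68w 1 member was higher and 3 lower, where 19.0% of all genes were higher and 19.1% lower. The median log2 fold change of the members was -0.46 in Ath+HF+BCAA 68w and -0.14 in Ath+HF 68w, beside medians of all genes of 0.01 and 0.05. Equal array medians put the median of all genes at -0.18 in Ath+HF+BCAA 68w, where 2781 genes were then higher and 7057 lower in place of 4557 and 4342. They put it at -0.14 in Ath+HF 68w, where 1191 genes were then higher and 6145 lower in place of 3791 and 3812. Under that scaling 0 members were higher and 7 lower in Ath+HF+BCAA 68w, and 1 was higher and 5 lower in Ath+HF 68w. With medians over the genes set equal, 2649 genes were higher and 7625 lower in Ath+HF+BCAA 68w, and 2651 higher and 4565 lower in Ath+HF 68w. These comparisons share the basal arrays, so their values are given side by side only.

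**Figure D2:**
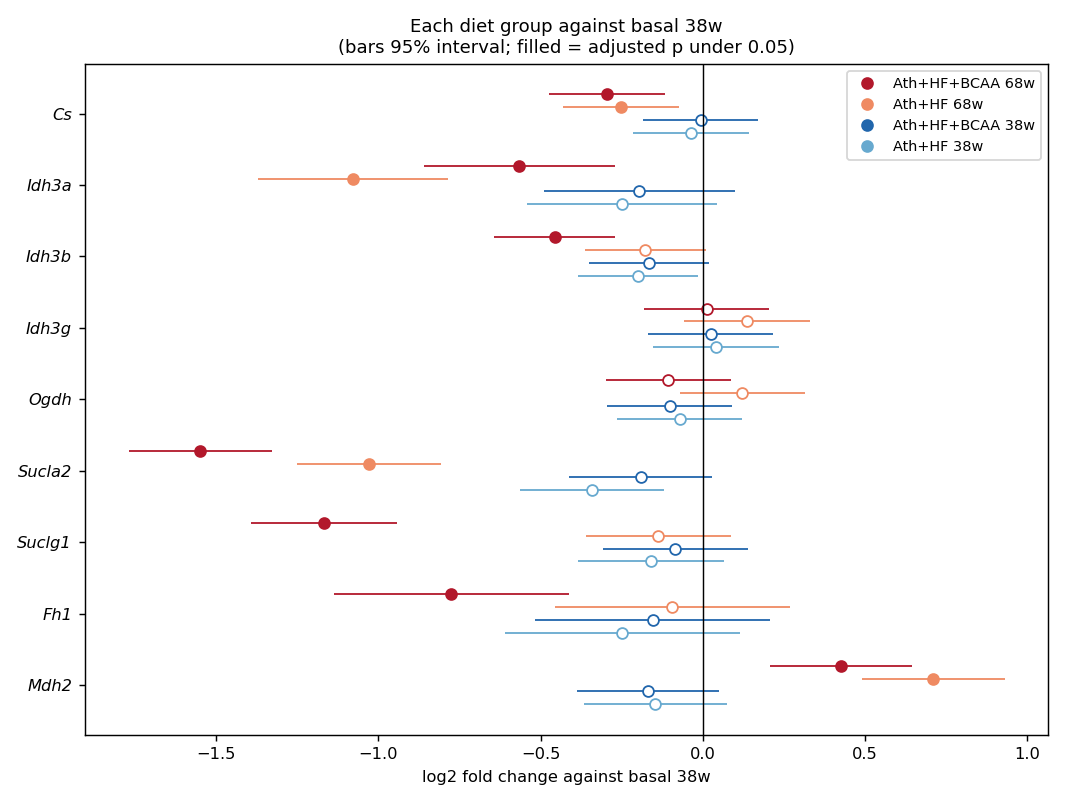
Log2 fold change of each member against basal 38w (x axis) for the 4 diet groups, with the 95% interval of the limma fit as a bar and a filled point where the adjusted p was under 0.05. Sucla2 and Suclg1 reach -1.55 and -1.17 in Ath+HF+BCAA 68w, Idh3a reaches -1.08 in Ath+HF 68w, Mdh2 lies to the right of 0 in both 68w groups, and every point of 38w is open.

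At 38w, 0 members were called in Ath+HF+BCAA 38w against basal 38w, where 3.67% of all genes were higher and 1.82% lower. Likewise 0 members were called in Ath+HF 38w, where 3.05% of all genes were higher and 1.18% lower. An unadjusted p under 0.05 was reached by 3979 genes with BCAA and 3504 genes without it. The median log2 fold change of the members was -0.15 in Ath+HF+BCAA 38w and -0.16 in Ath+HF 38w, beside medians of all genes of -0.01 and 0.00, and 8 of 9 members lay below 0 in each. With medians over the genes set equal, 574 genes were higher and 663 lower in place of 732 and 363 in Ath+HF+BCAA 38w, and 445 were higher and 559 lower in place of 608 and 235 in Ath+HF 38w. The member farthest from basal was Sucla2 in Ath+HF 38w, at -0.34 (95% interval -0.56 to -0.12, adjusted p = 0.0832, limma). Its value in Ath+HF+BCAA 38w was -0.19 (95% interval -0.41 to 0.03). Sucla2 in Ath+HF 38w passed the test without dim genes (adjusted p = 0.0400), under 3 other scalings (0.0315 to 0.0487) and by the methods' analysis of variance (0.0426).

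The effect that carries the label BCAA was read within each age. At 68w, 1 member was higher and 5 were lower in Ath+HF+BCAA 68w than in Ath+HF 68w, where 19.8% of all genes were higher and 16.4% lower. On the log2 scale Suclg1 fell by 1.03 (adjusted p = 1.76e-06, limma, standard error 0.11), Fh1 by 0.68 (standard error 0.17, adjusted p = 0.00548) and Sucla2 by 0.52 (standard error 0.10, adjusted p = 0.00102). The groups did not overlap in 7 of 9 members, these 3 among them, and in 58.7% of all genes. Idh3a went the other way, higher by 0.51 (standard error 0.14, adjusted p = 0.00855, limma), and it was the only member above 0. Idh3b (-0.28, adjusted p = 0.0205) and Mdh2 (-0.28, adjusted p = 0.0428) were also called lower.

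Of these 6 calls, those of Idh3b and Mdh2 were lost on leaving out single arrays and the other 4 were not. That of Idh3b was lost with quantile normalization (adjusted p = 0.139) and on leaving out replicate 1 or 2 of either 68w group (0.0503 to 0.0829). That of Mdh2 was lost with array medians set equal (0.0517), quantile normalization (0.132) or both groups fitted alone (0.0574), and without any of 7 arrays. These were all replicates of Ath+HF 38w, replicate 1 of Ath+HF+BCAA 38w, replicate 3 of Ath+HF 68w and replicates 1 and 2 of Ath+HF+BCAA 68w (0.0506 to 0.191). Ogdh, at -0.23 (95% interval -0.42 to -0.03), did not pass in the fit of all arrays (adjusted p = 0.0614). It passed on leaving out replicate 2 or 3 of basal 38w (0.0419 and 0.0439) and in 5 other settings (0.00442 to 0.0446). With medians over the genes set equal, the median of all genes was -0.23 in place of -0.09, 1 member was higher and 7 lower, Ogdh and Idh3g among them, and 2965 of all genes were higher and 7362 lower in place of 3947 and 3274. By the methods' analysis of variance, Idh3a (0.0536), Fh1 (0.0513) and Mdh2 (0.113) did not pass.

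At 38w, 0 members were called between Ath+HF+BCAA 38w and Ath+HF 38w, where 0% of all genes were higher and 0% lower in limma. An unadjusted p under 0.05 was reached by 1528 genes, and the methods' analysis of variance called 201. The members lay between -0.03 and 0.15 on the log2 scale, with a median of 0.03. The widest 95% interval was that of Fh1, -0.27 to 0.46, and that of Sucla2 was -0.07 to 0.37.

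The difference between these effects, at 68w minus at 38w, was tested in the same fit. Here 0 members were higher and 3 were lower, where 12.9% of all genes were higher and 7.67% lower. Suclg1 differed by -1.11 (standard error 0.15, adjusted p = 7.50e-05, limma), Sucla2 by -0.67 (standard error 0.15, adjusted p = 0.00402) and Fh1 by -0.77 (standard error 0.24, adjusted p = 0.0328). Suclg1 and Sucla2 held without each array in turn. Fh1 was lost on leaving out replicate 1 of Ath+HF 38w, replicate 1 or 2 of Ath+HF+BCAA 38w, replicate 2 or 3 of Ath+HF 68w, or replicate 1 or 2 of Ath+HF+BCAA 68w (adjusted p = 0.0614 to 0.0875). For Idh3a the difference was 0.46 (95% interval 0.05 to 0.87, adjusted p = 0.110, limma), so its higher level at 68w was not shown to differ from its value at 38w. With medians over the genes set equal, 5 members were lower, and 1820 of all genes were higher and 3608 lower in place of 2572 and 1530.

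**Figure D3:**
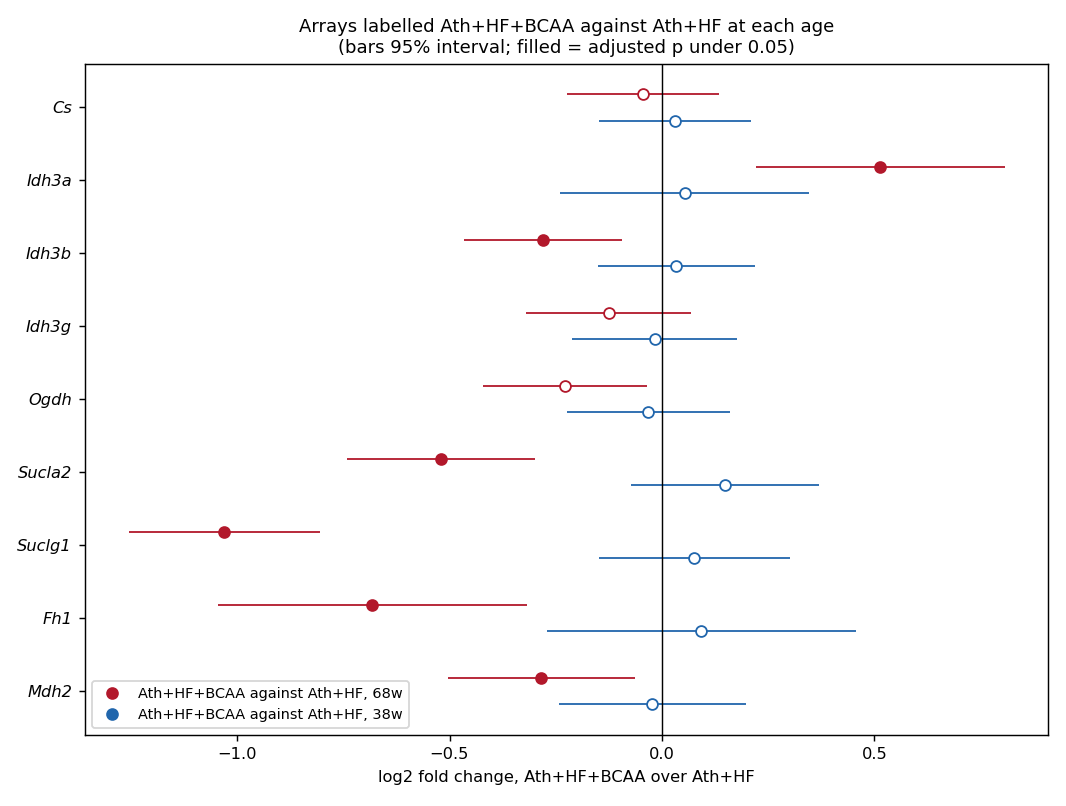
Log2 fold change of each member in Ath+HF+BCAA over Ath+HF (x axis) at 68w and at 38w, with 95% intervals as bars and filled points where the adjusted p was under 0.05. At 68w Suclg1, Fh1 and Sucla2 lie left of 0 and Idh3a lies right of it, and at 38w all 9 intervals include 0.

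Markers of other cells moved with the 68w labels. Of 15 macrophage markers 13 were higher in Ath+HF+BCAA 68w than in Ath+HF 68w and 0 were lower, with a median log2 fold change of 2.20, and the other two, Clec4f and Marco, did not pass. Of 10 stellate cell markers 9 were higher and 0 lower, and their summed linear signal was 15835 to 18073 in Ath+HF+BCAA 68w, against 6604 to 8422 in Ath+HF 68w. Of 9 hepatocyte markers 0 were higher and 3 lower (Ttr, Fga and Hnf4a), with a median of -0.18 and summed signals of 93254 to 96485 in Ath+HF+BCAA 68w, against 101039 to 102309 in Ath+HF 68w. The part of cell composition in the members' values was not tested. Against basal 38w, 13 macrophage markers were higher in Ath+HF+BCAA 68w and 7 were lower in Ath+HF 68w, or 13 with array medians set equal, and 12 were higher in each 38w group. Of the stellate cell markers, 9 were higher and 1 lower in Ath+HF+BCAA 68w against basal 38w, and 0 were higher and 2 lower in Ath+HF 68w, or 0 and 4 with array medians set equal. Of the hepatocyte markers, 1 was higher and 1 lower in Ath+HF+BCAA 68w, or 0 and 4 with array medians set equal and 0 and 5 with medians over the genes set equal. In Ath+HF 68w 2 were higher and 0 lower, or 0 and 2 with array medians set equal. In Ath+HF+BCAA 68w against Ath+HF 68w, 4 of 4 cholangiocyte, 5 of 7 endothelial and 3 of 5 lymphocyte markers were higher and 0 lower. With medians over the genes set equal, 3 endothelial and 1 lymphocyte markers were higher.

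Age was compared within each diet. In Ath+HF+BCAA 68w against Ath+HF+BCAA 38w, 1 member was higher and 6 were lower, where 20.5% of all genes were higher and 18.3% lower. Sucla2 fell by 1.36 (standard error 0.10, adjusted p = 2.99e-07, limma) and Suclg1 by 1.08 (standard error 0.11, adjusted p = 2.36e-06), and Mdh2 was higher by 0.59 (standard error 0.10, adjusted p = 0.000356). Fh1 (-0.62), Idh3a (-0.37), Idh3b (-0.29) and Cs (-0.29) were also called lower. With quantile normalization 1 member was higher and 3 were lower. With array medians set equal, 2272 of all genes were higher and 5659 lower in place of 4081 and 3654. Calls were lost without replicate 2 of Ath+HF+BCAA 38w for Idh3a (adjusted p = 0.171), Idh3b (0.0622) and Fh1 (0.0519), and without replicate 1 of Ath+HF+BCAA 68w for Idh3a (0.117), Idh3b (0.0517) and Cs (0.0569). Without replicate 2 of Ath+HF+BCAA 68w Idh3b (0.0649) and Idh3a (0.149) were lost.

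Idh3a in that comparison (adjusted p = 0.0444, limma) also failed without replicate 1 of Ath+HF+BCAA 38w (0.164), and, just past the threshold, without replicate 2 of basal 38w, any replicate of Ath+HF 38w, or replicate 1 or 3 of Ath+HF 68w (0.0506 to 0.0535). In Ath+HF 68w against Ath+HF 38w, 1 member was higher and 2 were lower, where 17.6% of all genes were higher and 20.0% lower. Mdh2 was higher by 0.86 (standard error 0.10, adjusted p = 2.80e-05, limma), Idh3a fell by 0.83 (standard error 0.14, adjusted p = 0.000356) and Sucla2 by 0.69 (standard error 0.10, adjusted p = 0.000172). Cs, at -0.21 (95% interval -0.39 to -0.04), did not pass (adjusted p = 0.0561), but passed in 5 other settings (0.00858 to 0.0424). With array medians set equal, 1656 of all genes were higher and 5244 lower in place of 3518 and 3985. In that comparison, 0 of 15 macrophage markers were higher and 14 lower. Of 10 stellate cell markers 0 were higher and 7 lower, and of 9 hepatocyte markers 2 and 1. In Ath+HF+BCAA 68w against Ath+HF+BCAA 38w, 8 macrophage markers were higher and 0 lower. Of the stellate cell markers 7 were higher and 1 lower, and of the hepatocyte markers 1 and 2. The part of cell composition in the changes with age was not tested.

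Within an array, the difference between the log2 signals of 2 genes is unchanged when a constant is added to all values of that array, as in both median scalings. Its size mixes in the probes of both genes, so only its change between groups is given. Relative to basal 38w, Idh3a minus Idh3g changed by -0.58 in Ath+HF+BCAA 68w and by -1.22 in Ath+HF 68w. Sucla2 minus Suclg1 changed by -0.38 in Ath+HF+BCAA 68w and by -0.89 in Ath+HF 68w, and Mdh2 minus Fh1, the last steps of the cycle, by 1.20 and 0.80. The 68w arrays did not overlap the basal arrays in any of these. Idh3a minus Idh3b changed by -0.11 in Ath+HF+BCAA 68w and by -0.90 in Ath+HF 68w. Relative to Ath+HF 68w, in Ath+HF+BCAA 68w Idh3a minus Idh3g changed by 0.64, Idh3a minus Idh3b by 0.79, Sucla2 minus Suclg1 by 0.51 and Mdh2 minus Fh1 by 0.40. Over 12 exact two-sided permutation tests of 3 against 3 arrays, 11 gave p = 0.1, the smallest this design allows, and Idh3a minus Idh3b in Ath+HF+BCAA 68w gave p = 0.4, so none can pass 0.05 (adjusted over the tests 0.109 and 0.4). In the other 11 tests no array of one group lay within the range of the other. This is the same fact as the outcome of those tests, so it adds no support. Single genes without overlap made up 50.1% of all genes in Ath+HF 68w against basal 38w. They made up 56.2% in Ath+HF+BCAA 68w against basal 38w and 58.7% in Ath+HF+BCAA 68w against Ath+HF 68w. How often other gene pairs lack overlap was not tested.

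**Figure D4:**
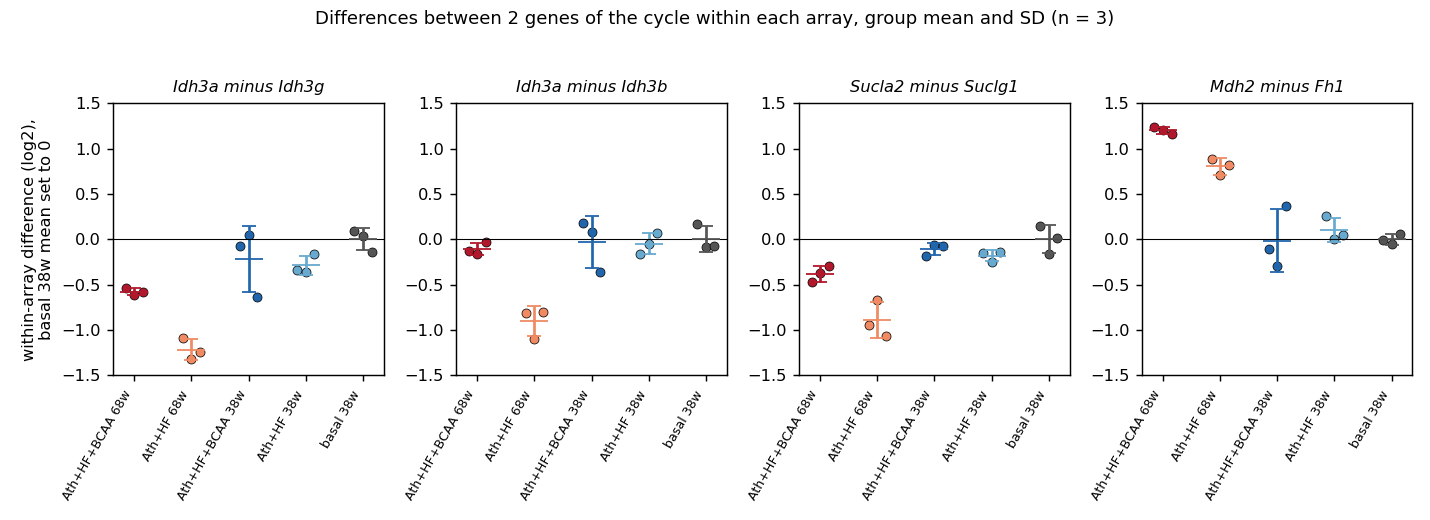
Difference between the log2 signals of 2 cycle genes within each array (y axis, with the mean of basal 38w set to 0) in the 5 groups (x axis), with 1 point per array and a bar at the mean with its SD (n = 3). Idh3a minus Idh3g and Sucla2 minus Suclg1 lie lowest in Ath+HF 68w, at changes of -1.22 and -0.89, and Mdh2 minus Fh1 lies highest in Ath+HF+BCAA 68w, at 1.20.

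The sequence upstream of the start site is shown for the members at the ends of the comparison of Ath+HF+BCAA 68w with basal 38w, Mdh2 and Idh3g at the top and Sucla2 and Suclg1 at the bottom. Each is the 250 bases before the RefSeq start on build GRCm38.p6, written from 5′ to 3′ on the gene's strand, and capitals mark matches to the motifs searched.
Mdh2, chr5:135778399-135778648, plus strand: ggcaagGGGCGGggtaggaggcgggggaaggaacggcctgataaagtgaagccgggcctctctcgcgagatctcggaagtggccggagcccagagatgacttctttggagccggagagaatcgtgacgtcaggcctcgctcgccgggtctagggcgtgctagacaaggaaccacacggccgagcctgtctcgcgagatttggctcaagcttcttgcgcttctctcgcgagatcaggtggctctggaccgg
Idh3g, chrX:73786898-73787147, minus strand: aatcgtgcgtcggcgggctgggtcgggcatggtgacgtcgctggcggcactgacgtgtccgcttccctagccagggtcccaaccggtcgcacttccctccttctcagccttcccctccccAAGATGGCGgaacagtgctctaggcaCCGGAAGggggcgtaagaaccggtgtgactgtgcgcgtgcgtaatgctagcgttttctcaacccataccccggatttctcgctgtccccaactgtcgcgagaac
Sucla2, chr14:73552536-73552785, plus strand: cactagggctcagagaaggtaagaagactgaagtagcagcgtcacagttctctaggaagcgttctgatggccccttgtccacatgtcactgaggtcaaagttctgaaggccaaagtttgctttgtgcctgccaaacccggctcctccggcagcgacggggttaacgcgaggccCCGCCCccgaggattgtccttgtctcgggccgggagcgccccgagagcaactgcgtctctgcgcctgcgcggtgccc
Suclg1, chr6:73248255-73248504, plus strand: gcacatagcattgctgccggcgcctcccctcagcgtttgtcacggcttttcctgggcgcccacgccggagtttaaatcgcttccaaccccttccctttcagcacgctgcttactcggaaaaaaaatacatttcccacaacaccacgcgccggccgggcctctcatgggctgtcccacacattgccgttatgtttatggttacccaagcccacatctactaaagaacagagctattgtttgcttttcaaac

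Motifs of factors known for mitochondrial or liver promoters were searched on both strands of 32851 such windows. These were CCAAT (NFY), GCGCATGCG (NRF1), TCAAGGTCA (estrogen-related receptors), CCGGAAG (ETS factors such as GABPA), GGGCGG (SP1) and AAGATGGCG (YY1), none of which contains another. A window was found for 8 members, a gene being counted once if any of its windows held the motif. The shares given beside the members are of single windows, an unlike measure. Ogdh had 6 windows and each other member with a window had 1. GGGCGG was present in the window of Mdh2 and, on the other strand, in that of Sucla2, and in 5 of 8 members beside 32.7% of all windows. CCAAT was in 4 of 8 members (Cs, Fh1, Idh3b and Ogdh) beside 33.8% of all windows, and in none of the 4 sequences shown. CCGGAAG and AAGATGGCG were both in the window of Idh3g, beside 6.91% and 0.606% of all windows. GCGCATGCG was in Ogdh, in 2 of the 6 windows of its start sites, beside 1.45% of all windows, and TCAAGGTCA in no member beside 0.387%. Suclg1 held no match to these letters in this window.

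Other genes of the pathway were counted from lists. Of 8 measured genes for other cycle subunits, 0 were higher and 5 lower in Ath+HF+BCAA 68w against basal 38w, with a median log2 fold change of -0.53, and 1 was higher and 5 lower in Ath+HF 68w, with a median of -0.45. Dld, the dehydrogenase component shared by the pyruvate and 2-oxoglutarate complexes, fell by 1.10 in Ath+HF+BCAA 68w (adjusted p = 2.2e-07, limma) and by 1.08 in Ath+HF 68w (adjusted p = 4.0e-06). Its levels were 9.12 to 9.35 and 9.16 to 9.26, against 10.18 to 10.40 in basal 38w, so that the 68w groups overlapped each other and not basal. Sdhd, a membrane anchor of succinate dehydrogenase, fell by 1.04 and 0.67 in the same groups, and was the only gene of this list called at 38w, at -0.50 in Ath+HF+BCAA 38w and -0.59 in Ath+HF 38w. Sdhc, the other anchor, was higher in Ath+HF 68w (0.61, adjusted p = 0.0011) and was at 0.12 in Ath+HF+BCAA 68w, which did not pass and lay below 0 with array medians set equal. In Ath+HF+BCAA 68w against Ath+HF 68w, 0 of the 8 were higher and 3 lower, Dlst (-0.46), Sdhc (-0.49) and Sdhd (-0.37).

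Of 6 genes that bring pyruvate into the cycle, 0 were higher and 6 lower in Ath+HF+BCAA 68w against basal 38w, and 0 were higher and 4 lower in Ath+HF 68w. Pdha1 and Pdhb, subunits of the first component of pyruvate dehydrogenase, fell by 0.82 and 0.84 in Ath+HF+BCAA 68w and by 0.96 and 0.71 in Ath+HF 68w. In Ath+HF+BCAA 68w against Ath+HF 68w, 0 were higher and 3 lower, or 0 and 5 with medians over the genes set equal, among them Mpc1, of the mitochondrial pyruvate carrier, at -0.55, and Pcx, pyruvate carboxylase, at -0.32, which did not pass with quantile normalization. Of 7 genes for the kinases, phosphatases and phosphatase regulator that switch pyruvate dehydrogenase, 3 were higher and 4 lower in Ath+HF+BCAA 68w, or 1 and 4 with array medians set equal. In Ath+HF 68w 1 was higher and 4 lower, or 0 and 4 with array medians set equal. Pdk4, the kinase induced by fasting, had levels of 8.21 to 8.32 in Ath+HF+BCAA 68w and 11.36 to 11.86 in Ath+HF 68w, against 10.76 to 12.09 in basal 38w. In Ath+HF+BCAA 68w against Ath+HF 68w, 2 of the 7 were higher and 3 lower. Pdk4 fell by 3.32 (adjusted p = 6.0e-06, limma), while Pdk3 was higher by 1.24 and Pdp1 by 0.68. Pdk3 averaged 6.78 in Ath+HF+BCAA 68w and 5.55 in Ath+HF 68w. Each mean lay below the median of all genes on those arrays, 7.35 to 7.50.

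Of 15 genes for the cytosolic counterparts and the exchange of cycle acids, 3 were higher and 8 lower in Ath+HF+BCAA 68w against basal 38w, and 2 were higher and 6 lower in Ath+HF 68w. With array medians set equal, 1 was higher and 11 lower in Ath+HF+BCAA 68w, and 0 were higher and 9 lower in Ath+HF 68w. Me1, the cytosolic malic enzyme that makes NADPH, fell by 2.26 in Ath+HF+BCAA 68w and by 0.92 in Ath+HF 68w, and was already lower at 38w, by 1.94 and 1.38. Me2, a mitochondrial malic enzyme, was higher by 0.58 in Ath+HF+BCAA 68w and fell by 0.73 in Ath+HF 68w. Mdh1, the cytosolic counterpart of Mdh2, fell by 0.41 and 0.37, opposite to Mdh2, and is named here after its values were seen. Of 12 genes for mitochondrial content, 0 were higher and 9 lower in Ath+HF+BCAA 68w, and 0 were higher and 7 lower in Ath+HF 68w. Tfam, which packages mitochondrial DNA, fell by 1.78 and 1.02. Of 13 regulators of mitochondrial genes, 2 were higher and 4 lower in Ath+HF+BCAA 68w, and 3 were higher and 2 lower in Ath+HF 68w. With array medians set equal, 1 was higher and 6 lower in Ath+HF+BCAA 68w, and 2 were higher and 3 lower in Ath+HF 68w, so that the balance in Ath+HF 68w turned. Gabpa fell in both groups, by 0.60 and 0.61, and Pprc1 was higher in both, by 0.51 and 0.60.

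**Figure D5:**
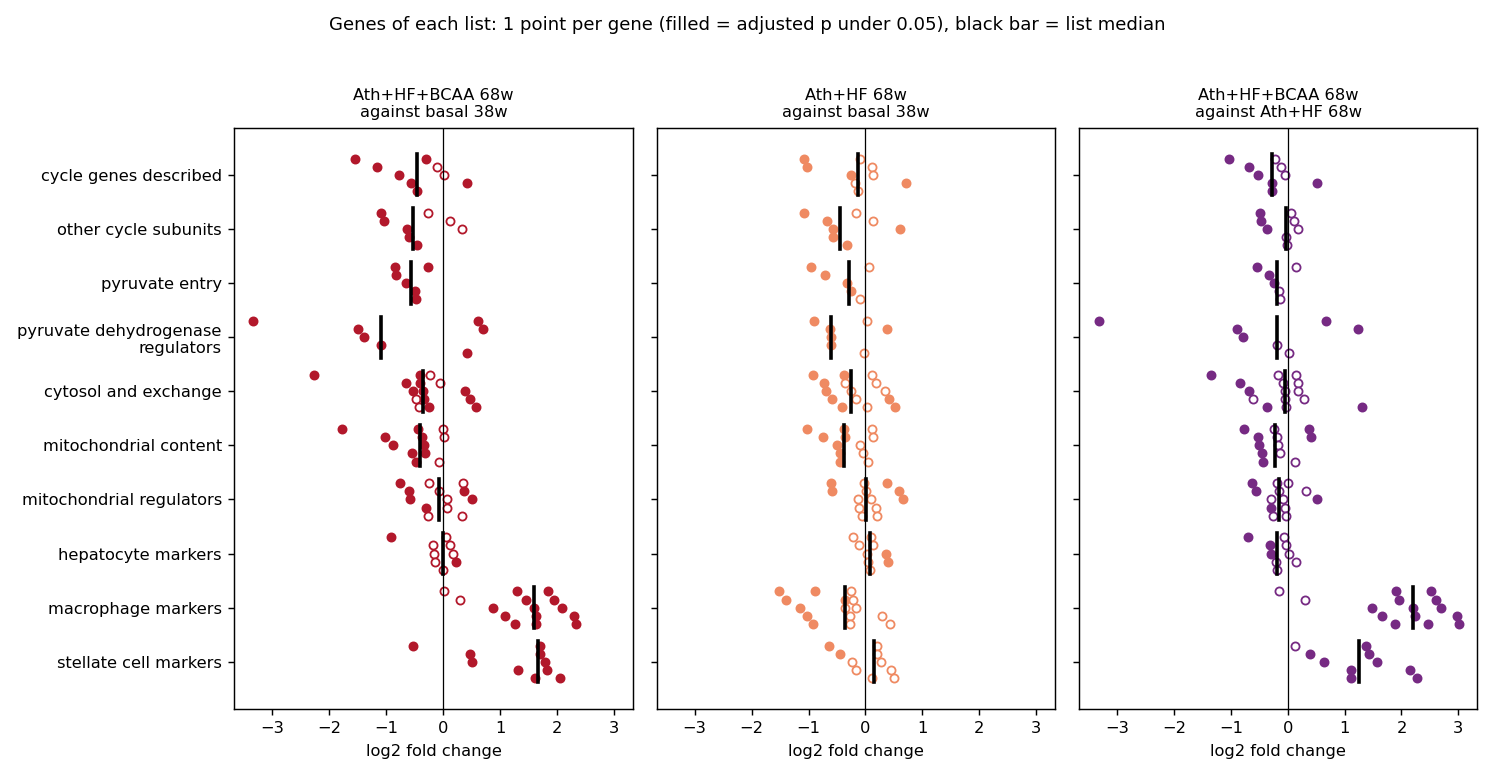
Log2 fold change (x axis, same scale in each panel) of the 9 cycle genes and of the genes of 9 other lists (down the page), for Ath+HF+BCAA 68w against basal 38w, Ath+HF 68w against basal 38w and Ath+HF+BCAA 68w against Ath+HF 68w, with filled points where the adjusted p was under 0.05 and a black bar at the list median. The cycle genes have medians of -0.46, -0.14 and -0.28 in these panels, and the macrophage markers have medians of 1.60, -0.36 and 2.20.

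Across all 15 arrays the members did not share 1 pattern. Pearson's r of a member with the mean of the other members, each scaled to its own spread, was 0.86 for Fh1, 0.84 for Idh3b and Suclg1 and 0.67 for Sucla2, but 0.15 for Idh3g, 0.16 for Idh3a and -0.38 for Mdh2. After the group means were removed, r was 0.80 for Mdh2 and between 0.19 (Cs) and 0.52 (Fh1) for the other 8 members. Among pairs of members, r was highest for Cs and Sucla2 (0.90) and lowest for Cs and Mdh2 (-0.78). The 8 genes most like the mean of the members were Aldh9a1 (r = 0.97), Timm17b (0.97), Pole4 (0.96), Mtch2 (0.96), Atp5j (0.96), Hsd17b7 (0.96), Dgat1 (0.96) and Mrps31 (0.96). Timm17b, Mtch2, Atp5j and Mrps31 encode mitochondrial proteins, of the import channel, the outer membrane, ATP synthase and the ribosome. These correlations are over 15 arrays of 5 groups, carry the group differences and any scaling the arrays share, and are given as a description.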

How the data were processed

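Liver RNA was measured on Affymetrix Mouse Gene ST arrays, 15 in all. The authors made the deposited log2 values with RMA in Expression Console (named in the submitters' processing notes, versions not given in the sources used here), which corrects background, normalizes quantiles and summarizes probes, and the log2 values were not normalized again in the main setting. The 21789 transcript clusters with 1 symbol in the platform annotation gave 19938 genes, with the brightest cluster for each of 999 genes with several. A linear model with a term for each of the 5 groups was fitted in limma 3.58.1 under R 4.3.3 (lmFit, then eBayes). It left 10 residual degrees of freedom and gave 9 comparisons. The fit was tested on simulated data, and the outcome is not given here. Groups came from the labels of the arrays. The number of arrays limits the precision. In each comparison all 9 members and at most 4 genes of a list, those with the smallest p, are named, with the 8 genes most alike. Upstream sequences are those of the 2 highest and 2 lowest members in 1 of the 2 comparisons with most calls, the one against basal 38w. The members, the lists and the rules were chosen with earlier results of these data known. Alternatives were another choice of cluster, no dim genes, the groups alone, 3 other scalings (1 chosen after seeing the data, with medians over the genes equal), a variance trend, array weights, a replicate block, the methods' analysis of variance (Bonferroni), and leaving out each array. Other measurements of the study are not analysed here.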

Additional observations from a re-analysis of the deposited data

Results flagged for a closer look

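The difference in log2 fold change between Ath+HF+BCAA and Ath+HF at 68w and the same difference at 38w passed the test of the difference itself for 3 of 9 members. The value was -1.11 for Suclg1 (adjusted p = 7.50e-05, limma), -0.67 for Sucla2 (adjusted p = 0.00402) and -0.77 for Fh1 (adjusted p = 0.0328). The effect itself was -1.03 at 68w and 0.08 at 38w for Suclg1, -0.52 and 0.15 for Sucla2, and -0.68 and 0.09 for Fh1. Fh1 was not called without any of 7 arrays (adjusted p = 0.0614 to 0.0875), while the other two were called without each of the 15 arrays. Groups of 3 arrays were not tested for outlying samples.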

How the results depend on the processing

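No called member changed direction in the alternatives, and 1932 of 2016 recomputed member values kept their call. Part of this agreement was fixed in advance. Each member has 1 transcript cluster, so another choice of cluster left its log2 values as they were. Leaving out an array outside a comparison left the log2 fold change of that comparison as it was. Values that were not called and stayed so, as most of those between 38w groups, also count as kept. Of the counts of members called, 214 of 224 stayed within 1.5 times. For Ath+HF 38w against basal 38w, 1 member (Sucla2, lower) was called in place of 0 without dim genes, with array medians set equal, with quantile normalization, with medians over the genes set equal and with the methods' analysis of variance. For Ath+HF+BCAA 68w against Ath+HF 68w that analysis called 3 in place of 6. For Ath+HF+BCAA 68w against Ath+HF+BCAA 38w, 4 were called in place of 7 with quantile normalization, and 4 to 7 on leaving out 1 array. For the difference of the BCAA effects, 5 were called in place of 3 with medians over the genes set equal. The cause was not tested. No pairing of the samples by replicate number was seen, which 3 arrays per group cannot exclude. Deviations from the group means correlated between arrays of the same number with r between -0.16 and 0.18 (median 0.0026). For arrays of other numbers r was between -0.19 and 0.20 (median -0.0069), and 7 of 15 arrays correlated best with their own number. With the replicate block, 6 members were called in place of 7 in Ath+HF+BCAA 68w against Ath+HF+BCAA 38w (Idh3a, adjusted p = 0.0543), and no other member call changed. Over all genes, 843 were called for Ath+HF 38w against basal 38w, but 502 with both groups alone, and 545 without replicate 3 of basal 38w and 421 without replicate 2 of Ath+HF 38w. For Ath+HF+BCAA 38w against basal 38w 1095 were called, but 667 with array weights, 322 with both groups alone, and 723, 555 and 672 without replicate 3 of basal 38w and replicates 1 and 3 of Ath+HF+BCAA 38w. The methods' analysis of variance called 4998 in place of 7603 for Ath+HF 68w against basal 38w and 4892 in place of 7503 for Ath+HF 68w against Ath+HF 38w. For Ath+HF+BCAA 38w against Ath+HF 38w it called 201 in place of 0, and array weights, or leaving out replicate 3 of Ath+HF+BCAA 38w, called 1. The number of arrays and the shared age of the basal arrays limit these values.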
